A study of Mus musculus with 3 samples.

Results

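The 10 genes Wnt2, Wnt3, Wnt4, Wnt5a, Wnt5b, Wnt6, Wnt7b, Wnt10a, Wnt11 and Wnt16 encode secreted WNT ligands, and their transcripts were followed across the cell types of mouse dorsal skin. All 10 were found by symbol among the 27998 genes of the deposited files, which hold 19 genes of the WNT ligand family in all. The data were 3 single-cell RNA sequencing libraries from C57BL/6 mice, 1 each from neonatal, 3 week and 2 month old animals, with no transgene, treatment or mutation named. Cells were freed from minced skin with collagenase D and DNase. A droplet kit then captured the 3' ends of transcripts and tagged each captured molecule with a unique molecular identifier (UMI). How many animals or which sex went into a library is not stated, so each age was 1 sample, no test between ages was possible, and intervals printed for single libraries cover counting error only.

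WNT proteins carry a lipid that is attached by Porcn, and Wls carries the modified protein to the cell surface. Outside the cell they bind Frizzled receptors, either with Lrp5 or Lrp6, which stabilises beta-catenin and switches on genes with TCF and LEF factors, or with receptors such as Ror2 and Ryk, which act without beta-catenin. In skin, WNT signals are known for starting hair follicles, for the growth of hair from the dermal papilla, a knot of fibroblasts at the follicle base, and for holding back the formation of fat cells. Wnt3, Wnt7b, Wnt10a and Wnt6 are usually counted among the ligands that signal through beta-catenin, and Wnt5a, Wnt5b and Wnt11 among those that mostly do not.

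The deposited matrices held 8452, 10226 and 10190 barcodes with 84086755, 113874172 and 98432611 UMIs in the neonatal, 3 week and 2 month libraries. After filters and removal of called doublets 7436, 8662 and 8970 cells remained, with median depths of 8510.5, 10987 and 8280 UMIs per cell. The libraries shared 23 to 31 barcodes in each pair. Cells were assigned to gates from listed marker genes, none of them a WNT ligand, and of the gated cells of each main class 99.1% to 100% also fell in a cluster of that class. Each cluster was named by the most common class of its own gated cells, so this agreement is partly built in. The finer gates were not checked in this way. There were 269, 1375 and 1736 keratinocytes, 5463, 5352 and 4442 fibroblasts, 105, 226 and 401 Schwann cells and 209, 464 and 799 immune cells. Smaller gates, such as 23 neonatal basal keratinocytes, give wide intervals, and a gate needed 20 cells in a library to be described.

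A level below is a gene's summed UMIs in a gate per 1000000 UMIs of that gate (CPM), and levels are compared only within a gene. The gates carried their defining genes. Krt14, a basal keratin, had 15971.5, 15261.2 and 10768.9 CPM in the basal interfollicular gate of the neonatal, 3 week and 2 month libraries, against 3.28, 17.4 and 9.42 CPM in fibroblasts. Krt10, a keratin of differentiating epidermis, had 35008.1, 13017.0 and 12168.9 CPM in the suprabasal gate, but the upper follicle gate, which was led by Krt79, also held Krt10 at 14607.3, 3022.3 and 1720.7 CPM. Pi16, which marks interstitial progenitor fibroblasts, had 687, 2094 and 5214 CPM in that gate, against 40.1, 368 and 1160 CPM in all fibroblasts. Corin, a dermal papilla marker, had 184, 69.4 and 18.2 CPM in the dermal papilla gate, against 2.48, 0.44 and 0.20 CPM in the other fibroblasts.

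Most of the ligands were found mainly in keratinocytes or mainly in fibroblasts, as the tests below give. The promoters of Wnt3 and Wnt4, both higher in keratinocytes, and of Wnt2 and Wnt11, both higher in interstitial progenitor fibroblasts, are printed here to show the sequence around the starts of ligands called in the same direction. RefSeq windows from 250 bases before to 50 after a gene's start (GRCm38.p6) matched 7 of the 10 genes by symbol, and those of Wnt5a, Wnt7b and Wnt10a were not used here. Capitals mark matches to 4 short motifs on either strand, with overlapping matches kept. They were the GC box, with the letters GGGCGG, to which Sp1 is known to bind. The TATA box, searched as TATAAA, helps place the start of transcription. The core of TCF and LEF sites was searched as CTTTGA, and the AP-1 site, a target of Fos and Jun, as TGANTCA. The window of Wnt3 is chr11:103773925-103774224 on the plus strand, that of Wnt4 chr4:137277385-137277684 on the plus strand, that of Wnt2 chr6:18030396-18030695 on the minus strand and that of Wnt11 chr7:98834862-98835161 on the plus strand.
Wnt3: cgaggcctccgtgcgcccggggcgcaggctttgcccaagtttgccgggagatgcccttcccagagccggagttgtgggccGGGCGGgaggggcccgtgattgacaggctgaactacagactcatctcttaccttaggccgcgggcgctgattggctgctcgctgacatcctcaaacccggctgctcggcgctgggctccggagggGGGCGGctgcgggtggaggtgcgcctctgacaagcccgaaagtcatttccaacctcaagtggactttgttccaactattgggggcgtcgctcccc
Wnt4: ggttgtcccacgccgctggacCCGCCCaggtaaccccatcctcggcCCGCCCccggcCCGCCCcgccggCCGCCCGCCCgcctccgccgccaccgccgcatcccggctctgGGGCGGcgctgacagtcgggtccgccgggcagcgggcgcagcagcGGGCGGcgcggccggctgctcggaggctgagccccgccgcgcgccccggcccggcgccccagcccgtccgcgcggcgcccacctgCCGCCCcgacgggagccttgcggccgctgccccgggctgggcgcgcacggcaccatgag
Wnt2: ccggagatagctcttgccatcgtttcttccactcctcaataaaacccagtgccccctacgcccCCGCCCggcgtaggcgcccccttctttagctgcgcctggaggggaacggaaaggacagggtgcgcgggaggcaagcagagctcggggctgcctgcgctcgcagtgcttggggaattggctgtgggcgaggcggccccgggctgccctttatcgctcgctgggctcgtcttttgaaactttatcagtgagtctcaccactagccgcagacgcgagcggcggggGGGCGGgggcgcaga
Wnt11: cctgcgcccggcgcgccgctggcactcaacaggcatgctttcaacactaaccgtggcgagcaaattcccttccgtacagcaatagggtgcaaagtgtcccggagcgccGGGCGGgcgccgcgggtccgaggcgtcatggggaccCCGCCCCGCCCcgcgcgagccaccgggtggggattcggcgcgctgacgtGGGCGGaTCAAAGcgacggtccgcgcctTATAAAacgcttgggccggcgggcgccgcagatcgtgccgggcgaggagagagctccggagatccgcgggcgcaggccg
These windows were GC-rich, at 65.7% for Wnt3, 84.3% for Wnt4, 65.7% for Wnt2 and 71.3% for Wnt11, against a median of 52.7% over 32851 promoter windows. Wnt4 had 8 matches to the GC box, Wnt11 had 4, and Wnt3 and Wnt2 had 2 each, and 35.7% of all windows held at least 1. Of the windows printed, that of Wnt11 alone held a TATA box, at 29 bases before the start, and a TCF/LEF core on the opposite strand, at 50 bases before it. Another Wnt11 window, chr7:98838595-98838894, was not printed. It was 59.3% GC and held 1 match to the GC box, with no TATA box and no TCF/LEF core. Over all windows 13.6% held the TATA box and 16% the TCF/LEF core, and 7.81% held the AP-1 site, which none of the printed windows had. Each match is a description of the letters and not a measured site. In the GENCODE M21 annotation Wnt6 (chr1:74771892-74785322) and Wnt10a (chr1:74791516-74804179) are neighbours on the plus strand, 6193 bases apart.

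**Figure D1:**
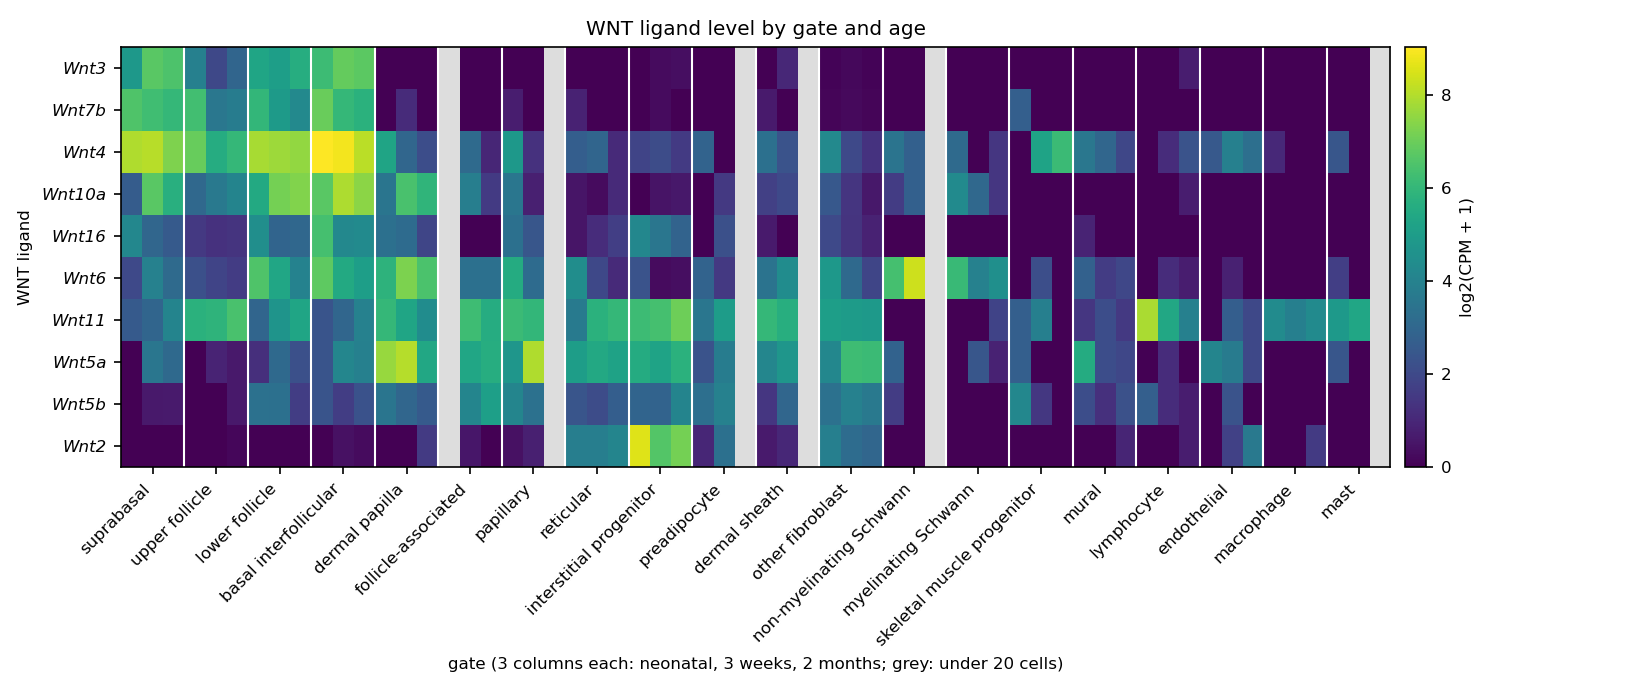
Levels of the 10 WNT ligands (rows) in the gated cell types (columns, 3 per gate in the order neonatal, 3 weeks, 2 months), as log2 of CPM plus 1, with 1 library per age and grey where a gate held under 20 cells. Wnt3, Wnt7b, Wnt4 and Wnt10a have their highest values in keratinocyte gates and Wnt2 in interstitial progenitor fibroblasts. Wnt10a is also seen in the dermal papilla gate, and Wnt6, Wnt11 and Wnt16 reach across classes.

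Keratinocytes were set against fibroblasts to ask which class carries each ligand. Of the 10 ligands 5 were higher and 4 lower in keratinocytes, and Wnt6 did not pass the test, beside 21% of all genes called higher and 27.2% called lower (edgeR quasi-likelihood test with library as block, adjusted p under 0.05, 14236 genes tested in 3 libraries). Their median log2 ratio was 1.18, against -0.04 over all genes tested.

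Wnt3, a ligand needed for early body axis and limb formation, had 28.6, 76.1 and 53.7 CPM in keratinocytes of the neonatal, 3 week and 2 month libraries, against 0.037, 0.135 and 0.078 CPM in fibroblasts. These rest on 3017 UMIs in keratinocytes and 15 in fibroblasts, and the log2 ratio was 9.01 ± 0.24 (SE, edgeR adjusted p = 0.000351). Wnt7b, known from lung and kidney development, followed the same division, with 81.5, 51.6 and 33.8 CPM in keratinocytes, against 0.204, 0.150 and 0.058 CPM in fibroblasts (log2 ratio 8.44 ± 0.24, edgeR adjusted p = 0.000351). Neither gene had a UMI in the macrophage, mast or endothelial gates of any library with 20 or more cells. Wnt4, known for kidney tubule and ovary development, had 245, 269.7 and 140.2 CPM in keratinocytes, against 17.9, 3.47 and 1.63 CPM in fibroblasts (log2 ratio 5.28 ± 0.63, edgeR adjusted p = 0.00416). In each library the keratinocyte level of these 3 ligands was above the fibroblast level with no overlap of the counting intervals.

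Wnt10a, whose loss in people disturbs teeth, hair and sweat glands, had 19.2, 126.3 and 71.9 CPM in keratinocytes, against 4.93, 2.93 and 3.59 CPM in fibroblasts. Its log2 ratio was 3.72 ± 0.72 (edgeR adjusted p = 0.0159), and the call was lost without the 3 week library (2.95, edgeR adjusted p = 0.0591) and without the 2 month library (3.57, edgeR adjusted p = 0.052). Wnt16, which supports bone strength, was higher by a smaller log2 ratio of 1.79 ± 0.26 (edgeR adjusted p = 0.0071), with 16.8, 8.58 and 6.81 CPM in keratinocytes, against 3.69, 2.32 and 1.75 CPM in fibroblasts. That call was lost without the 3 week library (1.87, edgeR adjusted p = 0.0706).

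Wnt2, a beta-catenin ligand of lung and placenta, was the reverse case. Keratinocytes of the 3 libraries held 4 Wnt2 UMIs in all and fibroblasts 3271, a log2 ratio of -8.26 ± 0.43 (edgeR adjusted p = 0.000538), and fibroblast levels were 16.5, 14.9 and 27.1 CPM. Wnt5a, which signals through Ror2 in limb and gut outgrowth, had 2.68, 10.6 and 5.42 CPM in keratinocytes, against 21.2, 72.3 and 65.1 CPM in fibroblasts (log2 ratio -3.37 ± 0.27, edgeR adjusted p = 0.00147). Its close relative Wnt5b had 2.20, 1.57 and 1.43 CPM in keratinocytes, against 9.60, 13.0 and 12.6 CPM in fibroblasts (log2 ratio -3.04 ± 0.37, edgeR adjusted p = 0.00452). Wnt11, known from kidney branching and cell movements in the embryo, differed least of the ligands called lower, at 10.9, 17.4 and 41.3 CPM in keratinocytes, against 37.4, 38.3 and 45.4 CPM in fibroblasts (log2 ratio -1.23 ± 0.29, edgeR adjusted p = 0.0263). Without the 3 week library the calls of Wnt5b (-2.86, edgeR adjusted p = 0.0537) and Wnt11 (-1.15, edgeR adjusted p = 0.147) were lost. Without the library block Wnt11 was not called either (-1.04, edgeR adjusted p = 0.134). Wnt6 had 32.4, 23.5 and 11.7 CPM in keratinocytes, against 27.7, 8.75 and 6.97 CPM in fibroblasts, and missed the threshold (log2 ratio 0.57 ± 0.24, edgeR adjusted p = 0.114). With basal interfollicular keratinocytes alone, an alternative chosen after seeing the data, Wnt6 was called higher than in fibroblasts (1.92, edgeR adjusted p = 0.000221).

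Of the 9 further ligands of the family 4 could be tested, and Wnt3a (8.01, edgeR adjusted p = 0.00377) and Wnt7a (6.82, edgeR adjusted p = 0.0106) were higher and Wnt9a lower (-4.96, edgeR adjusted p = 0.00181) in keratinocytes. The secretion genes Wls and Porcn did not pass the test. Among 17 receptor genes 3 were higher and 7 lower, with the receptors Fzd10 (log2 ratio 3.84) and Fzd6 (3.72) higher and Reck, a co-receptor for Wnt7 ligands, (-7.30), Ror2, the Wnt5a receptor, (-4.88) and Fzd4 (-3.50) lower.

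The share of a ligand's UMIs that came from each class follows how many cells of that class were recovered, so it describes these libraries. Keratinocytes held 76.5%, 83.4% and 78.9% of Wnt3 UMIs in the neonatal, 3 week and 2 month libraries, and barcodes that met the gates of several classes held a further 22.3%, 16.1% and 20.7%. Fibroblasts held 98.6%, 94.7% and 95.9% of Wnt2 UMIs. Wnt10a UMIs came from keratinocytes to 22.8%, 78.5% and 67.8%, and fibroblasts held 49.7% of them in the neonatal library. For Wnt5a 58.5%, 88% and 91.3% came from fibroblasts, and in the neonatal library a further 33.7% came from cells that entered no gate.

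**Figure D2:**
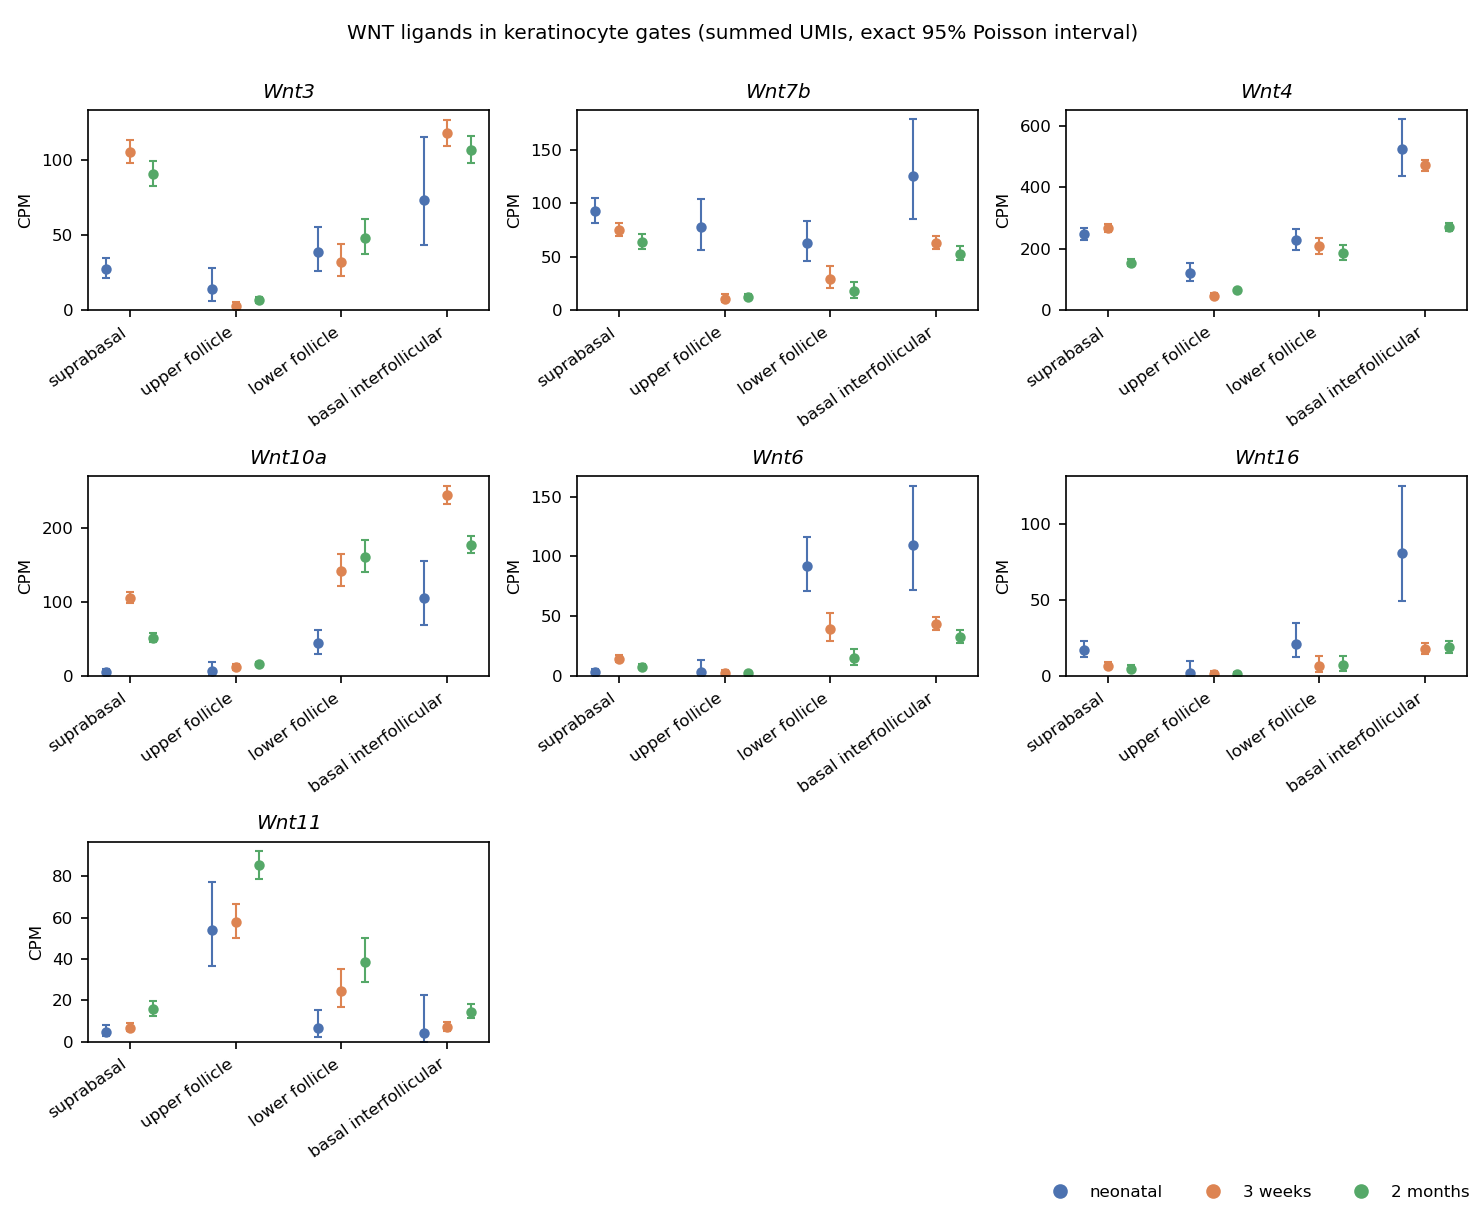
Level in CPM (y axis, linear, from 0) of 7 WNT ligands in the suprabasal, upper follicle, lower follicle and basal interfollicular gates of the neonatal, 3 week and 2 month libraries, as points with exact 95% Poisson intervals. Wnt4, Wnt10a, Wnt6 and Wnt16 are lower in suprabasal than in basal cells at each age, and Wnt11 is highest in the upper follicle.

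Within the interfollicular epidermis, suprabasal keratinocytes were set against basal ones, the dividing layer next to the dermis. Of 9 ligands tested none was higher and 5 were lower in suprabasal cells, beside 14% of all genes called higher and 11.5% called lower (edgeR, 10654 genes tested), and their median log2 ratio was -0.70 against 0.02 over all genes. At an unadjusted p under 0.05, and in DESeq2, none of the 9 was higher either, and Wnt2, with under 3 UMIs in either gate in each library, was not tested.

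Wnt6 had 3.00, 14.6 and 7.61 CPM in suprabasal cells of the neonatal, 3 week and 2 month libraries, against 109, 43.5 and 32.7 CPM in basal cells. The intervals were apart in all 3 libraries, and the log2 ratio was -2.02 ± 0.38 (edgeR adjusted p = 0.00504). Wnt10a had 5.25, 105 and 51.1 CPM in suprabasal cells, against 105, 244 and 177 CPM in basal cells (log2 ratio -1.71 ± 0.35, edgeR adjusted p = 0.00832). Wnt16 had 17.3, 6.89 and 4.83 CPM in suprabasal cells, against 81.1, 17.7 and 18.9 CPM in basal cells (log2 ratio -1.58 ± 0.21, edgeR adjusted p = 0.000987). These 3 ligands were lower in suprabasal cells in every library and kept the call without any 1 of them. Without the library block none of the 3 was called (Wnt6 -2.43, edgeR adjusted p = 0.0611, Wnt10a -1.58, edgeR adjusted p = 0.307, and Wnt16 -1.44, edgeR adjusted p = 0.309).

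Wnt4 had 248, 267 and 155 CPM in suprabasal cells, against 523, 471 and 270.5 CPM in basal cells, which had its highest level of all gates at each age. Its log2 ratio was -0.70 ± 0.16 (edgeR adjusted p = 0.0119), and the call was lost without the 3 week library (-0.72, edgeR adjusted p = 0.143) and without the 2 month library (-0.70, edgeR adjusted p = 0.22). Wnt5b, with 7 UMIs in suprabasal and 33 in basal cells over the libraries, was lower too (log2 ratio -2.37 ± 0.65, edgeR adjusted p = 0.0273), but not without the 3 week library (-2.96, edgeR adjusted p = 0.0681) or in DESeq2 (-2.64, adjusted p = 0.0569). Without the library block neither Wnt4 (-0.69, edgeR adjusted p = 0.274) nor Wnt5b (-2.57, edgeR adjusted p = 0.0795) was called. Wnt3 had 27.4, 105 and 90.6 CPM in suprabasal cells, against 73.0, 118 and 107 CPM in basal cells, a log2 ratio of -0.21 ± 0.19 that did not pass (edgeR adjusted p = 0.459). Wnt7b had 92.7, 75.1 and 63.9 CPM in suprabasal cells, against 125.7, 63.0 and 53.0 CPM in basal cells (log2 ratio 0.29 ± 0.15, edgeR adjusted p = 0.183), and was called higher without the neonatal library (0.37, edgeR adjusted p = 0.00354). Wnt5a (-0.67 ± 0.26, edgeR adjusted p = 0.098) and Wnt11 (0.18 ± 0.22, edgeR adjusted p = 0.577) did not pass in the fit of all libraries. Without the neonatal library Wnt5a was called lower (-0.64, edgeR adjusted p = 0.0154).

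Wls, which carries WNT ligands to the surface, was also lower in suprabasal cells (log2 ratio -1.04, edgeR adjusted p = 0.00473). Both further ligands that could be tested, Wnt3a (-2.20) and Wnt10b (-1.55), were lower, and of 13 receptor genes Lrp5 (0.81) was higher and Ptk7 (-1.27) and Fzd2 (-1.25) were lower. Of 9 canonical targets 1 was higher and 4 were lower.

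Follicular keratinocytes, the upper, lower and matrix gates together, were next set against basal interfollicular cells. Of 9 ligands tested 1 was higher and 7 were lower in follicular cells, beside 14% of all genes called higher and 10.1% called lower (edgeR, 10766 genes tested). Wnt11 was the 1 that was higher, with a log2 ratio of 2.65 ± 0.19 (edgeR adjusted p = 5.05e-05), and was not called without the library block (2.39, edgeR adjusted p = 0.06). It had 54.0, 58.1 and 85.4 CPM in the upper follicle and 6.65, 24.7 and 38.6 CPM in the lower follicle, against 4.05, 6.95 and 14.6 CPM in basal cells of the neonatal, 3 week and 2 month libraries. Upper follicle intervals were apart from those of basal cells at each age, and in the neonatal library the basal value rests on 1 UMI. Macrophages held Wnt11 at 19.3, 13.8 and 19.1 CPM, and Schwann cells at 0, 0 and 2.245 CPM. No level of stray RNA was set for this gene. The upper follicle intervals were apart from the macrophage ones at each age, while those of the lower follicle and of basal cells touched them or lay below.

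Upper follicle cells were 27 of the 72 cells of the follicular gate in the neonatal library, 273 of 359 at 3 weeks and 623 of 714 at 2 months, and levels are given for both parts. Wnt3 had 14.4, 2.88 and 6.74 CPM in the upper and 38.6, 32.1 and 47.9 CPM in the lower follicle, against 73.0, 118 and 107 CPM in basal cells (log2 ratio -2.87 ± 0.28 for both parts, edgeR adjusted p = 0.000269). Wnt7b had 77.4, 10.9 and 12.7 CPM in the upper and 62.5, 29.6 and 17.9 CPM in the lower follicle, against 125.7, 63.0 and 53.0 CPM in basal cells (-1.76 ± 0.19, edgeR adjusted p = 0.000391). Wnt4 (-1.81 ± 0.19, edgeR adjusted p = 0.00034) had 121, 47.5 and 64.4 CPM in the upper follicle and 229, 208 and 187 CPM in the lower. Wnt16 was lower by the log2 ratio -2.79 ± 0.23 (edgeR adjusted p = 0.000111), with 1 to 12 UMIs per library in the upper follicle. Without the library block Wnt7b (-1.47, edgeR adjusted p = 0.232) and Wnt16 (-2.74, edgeR adjusted p = 0.108) were not called.

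Wnt10a and Wnt6 had lower levels in the upper than in the lower follicle in each library, as did Wnt3 and Wnt4 above. The parts were not tested against each other. Wnt10a had 7.20, 11.5 and 15.9 CPM in the upper and 43.9, 142 and 161 CPM in the lower follicle, against 105, 244 and 177 CPM in basal cells. Wnt6 had 3.60, 2.59 and 2.07 CPM in the upper and 91.7, 39.5 and 15.02 CPM in the lower follicle, against 109, 43.5 and 32.7 CPM in basal cells. With both parts together Wnt10a (-2.23 ± 0.14, edgeR adjusted p = 2.72e-05) and Wnt6 (-1.92 ± 0.29, edgeR adjusted p = 0.00251) were lower than in basal cells. With the lower follicle alone, an alternative chosen after seeing the data, neither passed (Wnt10a -0.64, edgeR adjusted p = 0.0824, and Wnt6 -0.53, edgeR adjusted p = 0.183). Wnt5a was also called lower (-2.37 ± 0.54, edgeR adjusted p = 0.015), but not without the 3 week library (-2.41, edgeR adjusted p = 0.157), without the 2 month library (-1.48, edgeR adjusted p = 0.141) or in DESeq2 (-2.02, adjusted p = 0.0764). With a stricter gate neither Wnt6 (-1.38, edgeR adjusted p = 0.075) nor Wnt5a (-2.29, edgeR adjusted p = 0.117) was called, and neither was without the library block (Wnt6 -1.33, edgeR adjusted p = 0.496, and Wnt5a -1.92, edgeR adjusted p = 0.197).

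Wls was lower in follicular cells (log2 ratio -1.08, edgeR adjusted p = 0.00054), as were the further ligands Wnt3a (-3.76), Wnt7a (-3.04) and Wnt10b (-2.20). Of 13 receptor genes 5 were higher, among them Fzd7 (2.45) and Fzd3 (2.14), and 2 were lower, among them Fzd10 (-1.39), while none of 10 canonical targets passed (edgeR).

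Shares of cells were compared after each cell was thinned to 1500 UMIs, since depth differed between gates. Wnt4 was then seen in 34.8%, 48.3% and 27.1% of basal cells (Clopper-Pearson 95% intervals 16.4% to 57.3%, 43.8% to 52.9% and 23.1% to 31.4%), and in 14.8%, 7.33% and 8.36% of upper follicle cells, with 2 basal and 1 upper follicle cell of 2 months left out as too shallow. Before thinning the basal shares were 87%, 94% and 80.1%, and the upper follicle shares 48.1%, 35.9% and 40.8%. Macrophages had no Wnt4 UMI after thinning in any library (0 of 66, 116 and 106 cells, of which 3 cells would be 4.55%, 2.59% and 2.83%). Of basal cells thinned to 3000 UMIs, 71.4%, 62.2% and 44.4% held UMIs of at least 2 of the 10 ligands. The same held for 31.5%, 36.3% and 27.5% of suprabasal cells, for 7.41%, 2.57% and 6.37% of upper follicle cells and for no macrophage.

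**Figure D3:**
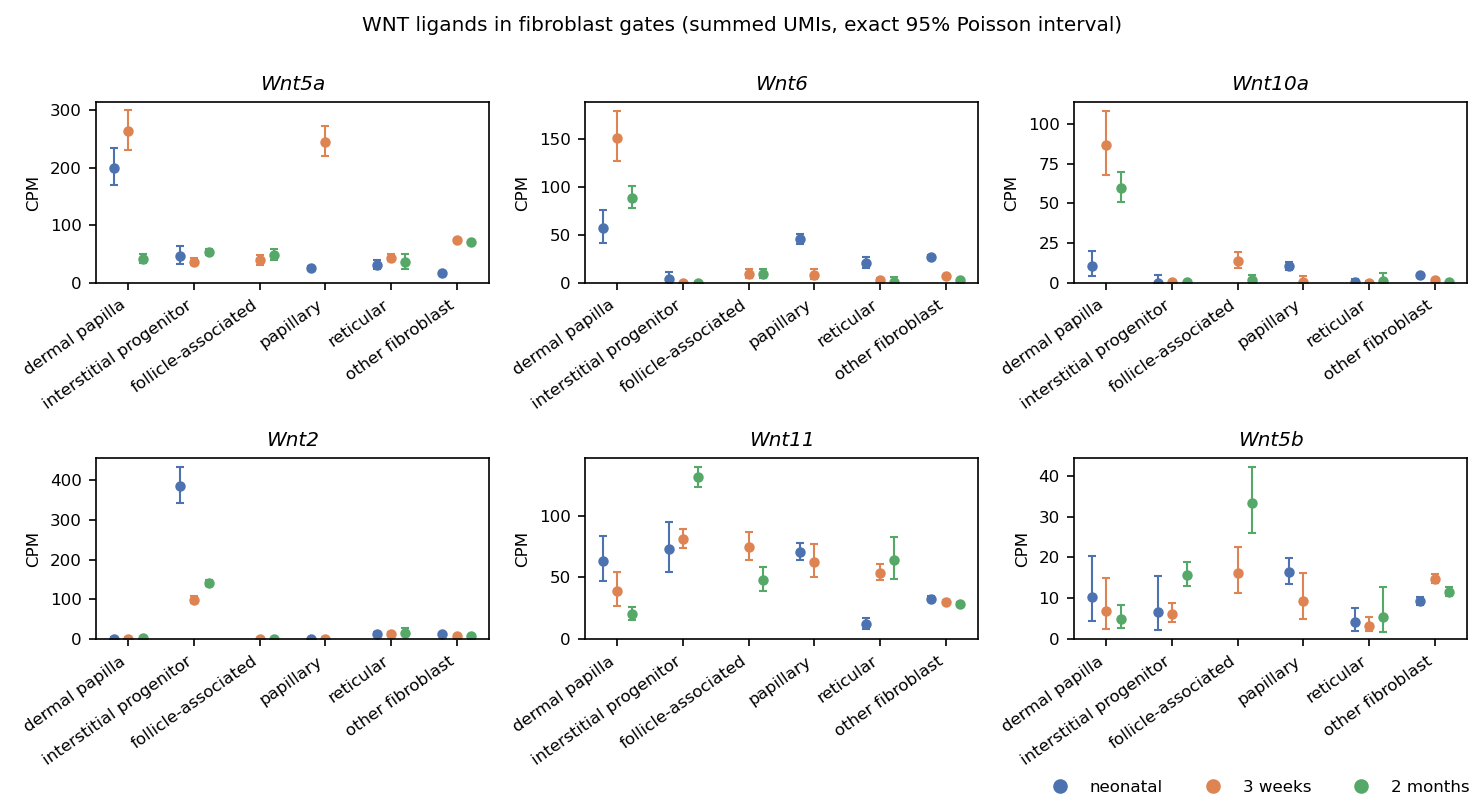
Level in CPM (y axis, linear, from 0) of 6 WNT ligands in the finer fibroblast gates of the neonatal, 3 week and 2 month libraries, as points with exact 95% Poisson intervals, with gates under 20 cells left out. Wnt2 is highest in interstitial progenitors at all 3 ages, and Wnt6 and Wnt10a are highest in the dermal papilla gate at 3 weeks and 2 months.

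Interstitial progenitor fibroblasts, known as Pi16 and Dpp4 cells of the fascia below the dermis, were set against all other fibroblasts. Of 8 ligands tested 3 were higher and 2 lower, beside 6.55% of all genes called higher and 8.07% called lower (edgeR, 13303 genes tested). Wnt2 had 386, 98.3 and 141 CPM in interstitial progenitors of the neonatal, 3 week and 2 month libraries, against 11.2, 7.96 and 6.47 CPM in the other fibroblasts. Its log2 ratio was 4.37 ± 0.34 (edgeR adjusted p = 0.00132), and its level was the highest of all gates and apart from the next, the reticular gate, in each library.

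Thinned to 1500 UMIs, 43.6%, 11.4% and 18.2% of interstitial progenitors held a Wnt2 UMI (92.7%, 59.8% and 65.8% before thinning), against 1%, 1.1% and 1.02% of fibroblasts given no finer name (3.31%, 4.86% and 4.05% before thinning), of which 6, 11 and 46 were left out as too shallow. Of macrophages 0 of 66, 0 of 116 and 1 of 106 cells did.

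Wnt16 had 17.2, 10.6 and 6.36 CPM in interstitial progenitors, against 3.50, 1.63 and 0.917 CPM in the other fibroblasts (log2 ratio 2.59 ± 0.26, edgeR adjusted p = 0.00232). Wnt11 had 72.7, 81.1 and 131 CPM in interstitial progenitors, against 36.9, 34.8 and 29.9 CPM in the other fibroblasts (log2 ratio 1.45 ± 0.22, edgeR adjusted p = 0.0087). Both were higher in each of the 3 libraries with intervals of the ratio above 0 on the log2 scale.

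Wnt6 and Wnt10a were the lower ligands. Interstitial progenitors held 3, 1 and 2 Wnt6 UMIs, or 3.96, 0.196 and 0.254 CPM, against 28.0, 9.46 and 8.19 CPM in the other fibroblasts (log2 ratio -4.47 ± 0.48, edgeR adjusted p = 0.00291). They held 0, 2 and 4 Wnt10a UMIs, against 5.002, 3.14 and 4.15 CPM in the other fibroblasts (log2 ratio -3.22 ± 0.48, edgeR adjusted p = 0.00822). The other fibroblasts include the dermal papilla gate, which held 8, 76 and 157 of their 266, 193 and 181 Wnt10a UMIs. In fibroblasts given no finer name Wnt10a had 4.65, 1.60 and 0.505 CPM, against 0, 0.392 and 0.509 CPM in interstitial progenitors, so the levels were alike at 2 months. None of these 5 calls was lost without any 1 library, and without the library block those of Wnt6 (-4.72, edgeR adjusted p = 0.0712) and Wnt16 (2.44, edgeR adjusted p = 0.0776) were. Wnt4 (-0.49 ± 0.47), Wnt5a (-0.24 ± 0.40) and Wnt5b (-0.37 ± 0.32) did not pass, and Wnt3 and Wnt7b were too low to test. Without the neonatal library Wnt5a was called lower (-0.70, edgeR adjusted p = 0.0369).

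Of the further ligands Wnt1 (4.73, 21 UMIs against 11, edgeR adjusted p = 0.00437) and Wnt10b (4.20, edgeR adjusted p = 0.00202) were higher in interstitial progenitors among 4 tested. None of 17 receptor genes was higher and 3 were lower, including Ptk7 (-2.86) and Lrp5 (-0.90). Of 14 canonical targets none was higher and 13 were lower. Among them Lef1, a partner of beta-catenin, had 0 UMIs and was at least 112-fold lower against a limit of 3 counts over the gate, and Axin2, a feedback inhibitor, was lower by the log2 ratio -2.63 (edgeR adjusted p = 0.000966).

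The dermal papilla gate held 93, 25 and 67 cells with median depths of 5441, 34515 and 39862 UMIs, against 9142, 12086 and 10303 UMIs in the other fibroblasts. Of 8 ligands tested 2 were higher and 1 lower in it, beside 6.96% of all genes called higher and 11.3% called lower (edgeR, 13377 genes tested). Wnt6 had 56.7, 151 and 88.8 CPM in the dermal papilla gate of the neonatal, 3 week and 2 month libraries, against 27.2, 6.84 and 2.56 CPM in the other fibroblasts (log2 ratio 3.19 ± 0.75, edgeR adjusted p = 0.024). Wnt10a had 10.3, 86.5 and 59.6 CPM in the gate, against 4.85, 1.81 and 0.573 CPM in the other fibroblasts (log2 ratio 4.30 ± 0.99, edgeR adjusted p = 0.0219). In the neonatal library alone the log2 ratio was 1.06 for Wnt6 (95% counting interval 0.59 to 1.49) and 1.09 for Wnt10a (-0.14 to 2.09). Both calls were lost with called doublets kept (Wnt6 3.16, edgeR adjusted p = 0.0515, and Wnt10a 4.20, edgeR adjusted p = 0.0568) and without the library block (Wnt6 2.64, edgeR adjusted p = 0.0914, and Wnt10a 4.07, edgeR adjusted p = 0.0535).

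Wnt2 was the lower ligand, with 0, 0 and 5 UMIs in the dermal papilla gate, against 16.7, 15.1 and 28.4 CPM in the other fibroblasts (log2 ratio -4.99 ± 0.59, edgeR adjusted p = 0.00159). Interstitial progenitors held 292, 502 and 1111 of the 887, 991 and 1388 Wnt2 UMIs of these other fibroblasts. In fibroblasts given no finer name Wnt2 had 14.0, 8.22 and 6.96 CPM, against 0, 0 and 1.90 CPM in the dermal papilla gate. Wnt5a had 199.8, 263 and 41.4 CPM in the gate, against 18.6, 69.7 and 66.4 CPM in the other fibroblasts, higher in the neonatal and 3 week libraries and lower at 2 months, and the fit over all libraries did not pass (log2 ratio 1.10 ± 0.71, edgeR adjusted p = 0.307). Without the 2 month library Wnt5a was called higher (2.16, edgeR adjusted p = 0.000369). Wnt4 (0.59 ± 0.35), Wnt16 (0.76 ± 0.50), Wnt11 (-0.65 ± 0.39) and Wnt5b (-1.29 ± 0.42, edgeR adjusted p = 0.0668) did not pass. Without the neonatal library Wnt5b (-1.72, edgeR adjusted p = 0.0114) and Wnt11 (-1.15, edgeR adjusted p = 0.0318) were called lower.

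The gate asked for 5 of 12 papilla markers, and cells with papilla markers also fell outside it, for reasons that were not tested. In the neonatal library 720 of the 1012 cells of no gate fell in 1 cluster, together with 84 of the 93 gated papilla cells and 370 of the 5463 fibroblasts, and their median depth was 3872 UMIs. These 720 cells held Corin at 144 CPM, Sox2 at 110 CPM and Alx4 at 59.0 CPM, with Col1a1 at 431 CPM, against 184, 222, 94.1 and 1298 CPM in the dermal papilla gate. Their Wnt5a level was 217 CPM, with 69.0 CPM of Wnt6, 27.7 CPM of Wnt10a and no Wnt2 UMI. With a wider gate of 3 markers, chosen after seeing the data and holding 929, 258 and 456 cells, Wnt5a had 97.7, 122.7 and 50.8 CPM, against 15.8, 69.9 and 66.3 CPM in the other fibroblasts. Wnt6 then had 42.1, 58.2 and 47.3 CPM in the wider gate, against 26.7, 6.46 and 2.32 CPM, and neither Wnt6 (2.33, edgeR adjusted p = 0.0799) nor Wnt10a (3.68, edgeR adjusted p = 0.0557) passed, while Wnt2 did. Corin stood at 69.7, 26.0 and 8.80 CPM in the wider gate, against 184, 69.4 and 18.2 CPM in the dermal papilla gate. Col1a1 stood at 5852, 15865 and 9858 CPM, against 1298, 2760 and 1868 CPM, so the gates differed in more than size.

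Of 14 canonical targets 6 were higher and 2 lower in the dermal papilla gate, with Lef1 (6.22 ± 1.14, edgeR adjusted p = 0.00969) and Notum, a secreted enzyme that removes the lipid from WNT proteins, (5.02, edgeR adjusted p = 0.000456) higher. Of 17 receptor genes 2 were higher and 3 lower, with Fzd10 (1.91) and Fzd3 (1.44) higher and Ror1 (-3.57) lower, and Wnt9a (-1.89) was the lower of 2 further ligands tested.

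Other fibroblast gates were described without a test. Papillary fibroblasts, of the upper dermis, had Wnt5a at 25.7 CPM in the neonatal and 245 CPM in the 3 week library, where the interval of 219 to 272 CPM touched that of the dermal papilla. Follicle-associated fibroblasts had the highest Wnt5b level of all gates at 2 months, 33.4 CPM (26.0 to 42.2 CPM), apart from the next. Neonatal mural cells, the contractile cells around vessels, held Wnt5a at 46.1 CPM, with 3.42 and 2.76 CPM at the later ages.

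**Figure D4:**
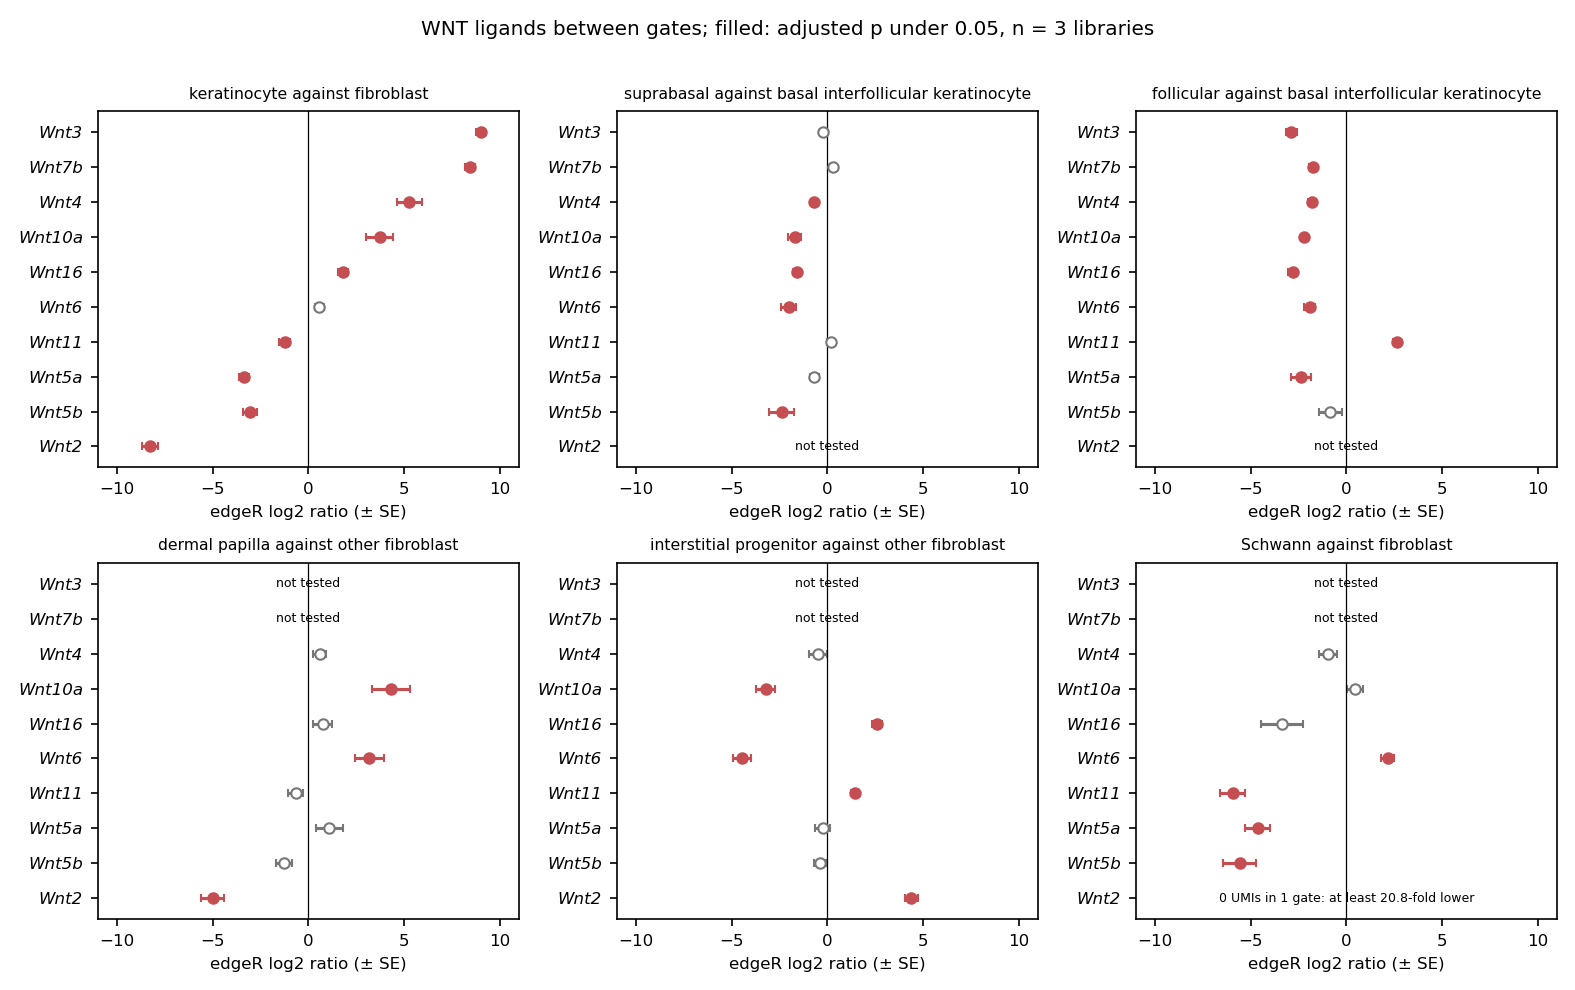
Log2 ratio (x axis) of each WNT ligand (y axis) in the 6 gate comparisons, first gate over second, as edgeR estimates over 3 libraries, filled where the adjusted p was under 0.05. Bars are the SE derived from the F statistic of the test, which can be smaller than counting error for ligands with few UMIs. Wnt2 lies at 4.37 in interstitial progenitors and at -8.26 in keratinocytes, and Wnt11 is the 1 filled point above 0 in follicular cells.

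Schwann cells, the glia of skin nerves, were set against fibroblasts. Of 8 ligands tested 1 was higher and 4 were lower, beside 8.41% of all genes called higher and 11.2% called lower (edgeR, 13477 genes tested). Wnt6 was the higher one, with 91.9, 84.7 and 38.9 CPM in Schwann cells of the neonatal, 3 week and 2 month libraries, against 27.7, 8.75 and 6.97 CPM in fibroblasts (log2 ratio 2.15 ± 0.36, edgeR adjusted p = 0.015). The call was lost without the 3 week library (1.73, edgeR adjusted p = 0.109).

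Within the glia Wnt6 was uneven at 3 weeks. Non-myelinating Schwann cells, told by Scn7a at 129 and 1088 CPM in the neonatal and 3 week libraries, held Wnt6 at 82.1 CPM (58.7 to 112) in the neonatal and 326 CPM (246 to 423) in the 3 week library. Myelinating cells held 69.2, 14.6 and 21.6 CPM of Wnt6, so the intervals of the gates touched in the neonatal library and were apart at 3 weeks. At 3 weeks the non-myelinating gate had the highest Wnt6 level of all gates, and 36.6% of its 41 cells held a Wnt6 UMI after thinning to 1500 UMIs (22.1% to 53.1%), against 70.7% before thinning. No macrophage had a Wnt6 UMI. At 2 months the gate held 7 cells and was not described.

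Wnt2 had 0 UMIs in Schwann cells of all 3 libraries and was at least 20.8-fold lower than in fibroblasts against a limit of 3 counts over the gate (edgeR adjusted p = 0.0118). Wnt5b had 1 UMI, a pooled log2 ratio of -5.27 with a counting interval of -10.58 to -2.79 (edgeR adjusted p = 0.0121), and Wnt11 had 3 UMIs, a pooled log2 ratio of -5.46 with an interval of -7.73 to -3.91 (edgeR adjusted p = 0.00477). Wnt5a had 3.87, 3.30 and 0.748 CPM in Schwann cells, against 21.2, 72.3 and 65.1 CPM in fibroblasts (log2 ratio -4.62 ± 0.66, edgeR adjusted p = 0.00969). Without the 3 week library Wnt2 (edgeR adjusted p = 0.0572), Wnt5a (edgeR adjusted p = 0.111) and Wnt5b (edgeR adjusted p = 0.107) were no longer called. Wnt10a (0.44 ± 0.42), Wnt4 (-0.97 ± 0.46) and Wnt16 did not pass. Wls was lower in Schwann cells (-3.11, edgeR adjusted p = 0.00164), and of 17 receptor genes Fzd3 (2.67) was higher and 6 were lower, including Ptk7 (-3.71). The median log2 ratio of the ligands was -3.99, or -3.87 with Wnt2, at 0 UMIs in Schwann cells, set to its bound, against -0.10 over all genes.

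**Figure D5:**
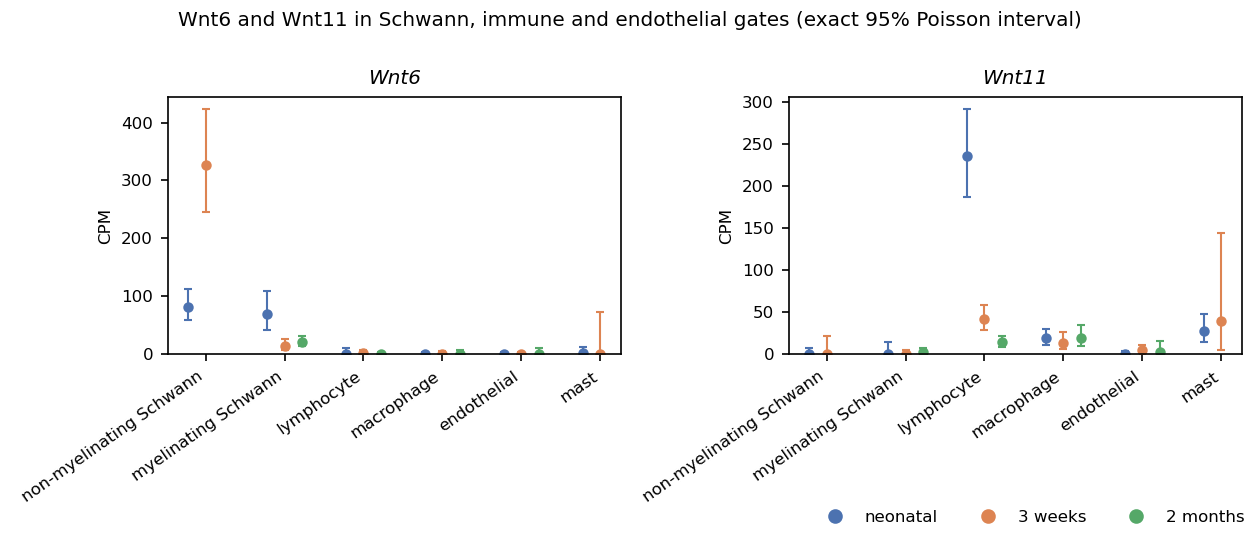
Level in CPM (y axis, linear, from 0) of Wnt6 and of Wnt11 in non-myelinating and myelinating Schwann cells, lymphocytes, macrophages, endothelial cells and mast cells of the neonatal, 3 week and 2 month libraries, as points with exact 95% Poisson intervals. Wnt6 is highest in non-myelinating Schwann cells at 3 weeks (326 CPM) and Wnt11 in neonatal lymphocytes (236 CPM).

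Among immune cells Wnt11 was the ligand with the most UMIs, at 126, 72 and 54 in the neonatal, 3 week and 2 month libraries. Lymphocytes, told by Cd3e at 673, 1858 and 2133 CPM, held Wnt11 at 236 CPM (188 to 292), 41.9 CPM and 14.4 CPM in the neonatal, 3 week and 2 month libraries, from 83, 34 and 22 UMIs. The neonatal value was the highest of all gates for Wnt11 and apart from the next, and it came from 39 cells of 1 library. Those cells held Col1a1 at 53.9 CPM and Pdgfra, Corin, Pi16, Coch and Tnmd at 0, against 13238 CPM of Col1a1 and 223 CPM of Pdgfra in neonatal fibroblasts. Whether their Wnt11 UMIs were partly stray RNA of other cells was not tested. Thinned to 1500 UMIs, 23.1% of the 39 neonatal lymphocytes held a Wnt11 UMI (11.1% to 39.3%), against 71.8% before thinning, and 2 of 66 neonatal macrophages did (3.03%). Dendritic or Langerhans cells held Wnt11 at 47.2 and 34.7 CPM in the 3 week and 2 month libraries. Macrophages held 19.3, 13.8 and 19.1 CPM, and neonatal mast cells 28.2 CPM. Over all immune cells the other ligands stayed at 12 UMIs or fewer per library. Skeletal muscle progenitors, told by Myod1, were the gate outside keratinocytes with the highest Wnt4 at 3 weeks and 2 months, 36.6 CPM (22.6 to 55.9) and 70.1 CPM (36.2 to 123), from 21 and 12 UMIs, and held none in the neonatal library.

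Ages were compared as ratios of summed levels with counting intervals, and a ligand was counted where it reached 10 CPM at either age, differed at least 2-fold and had an interval without 0 on the log2 scale. In basal cells 1 of 7 ligands measured was higher and 2 were lower at 3 weeks than in the neonatal library, beside 14.1% of all genes past the same limits in either direction. Wnt10a was higher (log2 ratio 1.21, interval 0.65 to 1.83), and Wnt16 (-2.20, -2.89 to -1.43) and Wnt6 (-1.33, -1.90 to -0.70) were lower. In suprabasal cells 4 of 7 were higher and 1 was lower, beside 19.7% of all genes. Wnt10a (4.33, 3.57 to 5.20), Wnt6 (2.28, 1.25 to 3.53) and Wnt3 (1.94, 1.59 to 2.31) were higher at 3 weeks, as was Wnt5a, which had 79 UMIs at 3 weeks and 0 in the neonatal library, a log2 ratio of at least 3.24 against 3 counts. Wnt16 was lower (-1.33, -1.93 to -0.72). Wnt10a thus was higher at 3 weeks in both epidermal gates, and Wnt6 was lower in the basal and higher in the suprabasal gate.

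Between 3 weeks and 2 months fewer ligands passed. Wnt11 was higher at 2 months in basal cells (1.07, 0.50 to 1.65), the 1 of 8 ligands there beside 1.79% of all genes, and in suprabasal cells (1.23, 0.70 to 1.76). Both levels at 2 months, 14.6 and 15.8 CPM, were no higher than the 19.1 CPM of macrophages, but above the 2.245 CPM of Schwann cells. In suprabasal cells Wnt10a was lower (-1.04, -1.25 to -0.84), so 1 of 7 was higher and 1 lower beside 2.58% of all genes. Basal Wnt4 was 270.5 CPM at 2 months, against 471 CPM at 3 weeks, short of a 2-fold difference (-0.80, -0.89 to -0.71).

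In the dermal papilla gate 2 of 6 ligands were higher and 1 was lower at 3 weeks than in the neonatal library, beside 15.6% of all genes. Wnt10a (3.07, 2.02 to 4.33) and Wnt6 (1.42, 0.91 to 1.94) were higher and Wnt4 (-2.45, -4.01 to -1.16) was lower. In the wider gate chosen after seeing the data, Wnt6 had 58.2 CPM at 3 weeks, against 42.1 CPM in the neonatal library, short of a 2-fold difference, and Wnt10a had 31.9 CPM at 3 weeks, against 13.9 CPM. That wider gate held less Corin and more Col1a1 per UMI than the dermal papilla gate at both ages. At 2 months Wnt5a was lower than at 3 weeks (-2.67, -3.01 to -2.33), the 1 of 4 ligands measured, beside 21.1% of all genes. The depth of the gated cells differed between these ages, as given above, and its part in the ratios was not tested.

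In interstitial progenitors Wnt2 was lower at 3 weeks than in the neonatal library (-1.97, -2.18 to -1.76), the 1 of 4 ligands measured, beside 13.3% of all genes. At 2 months Wnt5b was higher than at 3 weeks (1.33, 0.76 to 1.94), 1 of 5 beside 10.2% of all genes. In fibroblasts given no finer name 1 of 6 was higher and 2 were lower at 3 weeks than in the neonatal library, beside 21.1% of all genes. Wnt5a was higher there (2.12, 2.00 to 2.24), with 73.7 CPM at 3 weeks against 17.0 CPM in the neonatal library, and Wnt4 (-2.58, -2.84 to -2.33) and Wnt6 (-1.84, -2.01 to -1.67) were lower. Between 2 months and 3 weeks none of 3 passed, beside 7.24% of all genes.

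The genes whose levels ran most like each ligand were read over 66 profiles of gate and library, as Pearson correlations of log2(CPM + 1) among profiles that share libraries. Wnt3 and Wnt7b were most like each other (r = 0.95), and Wnt3 was also like Gyltl1b and Ckmt1 (0.95 each) and Wnt7b like Cwh43 (0.96) and Ifi202b (0.95). Wnt4 was most like Ifi202b (0.86), Sox21 and Ckmt1 (0.84 each), and Wnt10a like Lgr6, an R-spondin receptor, Tfap2c, a transcription factor (0.84 each), and Efna3 (0.83). Wnt2 was most like Pamr1 (0.87), Sfrp4, a secreted WNT-binding protein (0.85), and Stmn4 (0.84). Wnt5a was most like Igfbp3 (0.82), Tmem132c and Mrc2 (0.80 each), and Wnt5b like Mrc2 (0.78), Hoxc6 and Twist2 (0.76 each), and Wnt5a and Wnt5b were correlated at 0.73. Wnt6 was most like Lrfn4 (0.80), Sostdc1, a secreted inhibitor of BMP and WNT signals (0.74), and Nradd (0.73). Wnt16 was most like Fzd10, a Frizzled receptor (0.75), Mcc (0.70) and Myo19 (0.68), and Wnt11 had the weakest likeness, to Tnfrsf23 (0.64), Socs1 (0.63) and Creb3l1 (0.62).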

How the data were processed

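Single-cell RNA of dorsal skin was measured in 3 libraries, 1 per age. The authors deposited UMI counts for each gene in each barcode, not normalized, and Cell Ranger 3.0.2, Seurat 2.0 and mm10 are named per the submitters' processing notes. How barcodes were chosen is not given in the sources used here.

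Barcodes with at least 300 genes, 500 UMIs and at most 10% mitochondrial UMIs were kept (7911, 8900 and 9332). Doublets were called with Scrublet in scanpy 1.11.5 and removed (475, 238 and 362). Its own threshold called 0.0253% of neonatal barcodes, below a minimum of 0.5%, and there the top 6% by score were removed instead. Cells were gated by counting listed markers with at least 2 UMIs, and 150, 425 and 293 cells that met several classes and 1012, 424 and 974 that met none were kept out of the comparisons. Leiden clusters were used only to check the main classes of the gates and to describe cells of no gate. Markers Krt85, Trdc, Tcrg-C1 and Gpr124 were not used here. Near-identical copies of the ligands were not looked for, and Wnt5a, Wnt5b, Wnt6, Wnt7b and Wnt11 overlap a gene on the opposite strand (Gm2670, Fbxl14, Gm29539, AU022754 and Gm8398). Whether counting used strand is not given in the sources used here, so reads of these pairs could be shared.

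Counts were summed per gate and library. Gates were compared with edgeR 4.0.16 (R 4.3.3, quasi-likelihood test, TMM, filterByExpr), with the library as a block and Benjamini-Hochberg adjustment over all genes tested. An SE printed after ± is the size of the log2 ratio divided by the square root of the F statistic of that test. It can be smaller than counting error where a gate held few UMIs of a gene. Gates of 1 library come from the same animals, and their deviations from the gate means correlated at 0.14 to 0.63. DESeq2 1.42.0, RLE scaling, no filter, no block, leaving out each library, kept doublets, a 5% mitochondrial limit and stricter gates were alternatives. Separate cultures or animals behind the 3 libraries are not stated beyond age, so the p-values measure the spread of a gate difference between these libraries. Levels have exact Poisson intervals and shares exact Clopper-Pearson intervals, at 95%, for counting error only. A count of 0 was limited by 3 counts. Ratios between ages needed 10 CPM at either age.

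Named genes were the 10 ligands, the 3 genes most like each, and at most 6 other ligand, secretion or receptor genes per comparison that passed, largest change first. Other ligands of the family, secretion, receptor and target genes came from a list. Targets, marker genes and genes named by clause outside that rule were given as counts with examples. The ligands, lists and gates were chosen with earlier results of these data known. The main edgeR fit of each comparison was tested on simulated counts with a fixed spread and no library effect. The alternative fits were not.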

Additional observations from a re-analysis of the deposited data

Results flagged for a closer look

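Some ligands moved in opposite directions in different libraries under the same gate comparison, by the sign of the log2 ratio with a counting interval without 0, and these differences between libraries were not tested. Wnt5a in the dermal papilla gate against the other fibroblasts had log2 ratios of 3.43 in the neonatal library, 1.91 at 3 weeks and -0.68 at 2 months. Wnt11 in the same comparison had 0.77 in the neonatal library and -1.22 at 2 months. Wnt5a in interstitial progenitors against the other fibroblasts had 1.15 in the neonatal library, -1.03 at 3 weeks and -0.33 at 2 months, and Wnt5b had -1.11 at 3 weeks and 0.40 at 2 months. The median depth of dermal papilla cells was 5441, 34515 and 39862 UMIs at the 3 ages, and its part in these ratios was not tested.

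Cells that entered no gate were outside all comparisons, and in the neonatal library they held Wnt5a at 140.3 CPM, with no UMI of the gene in the macrophage gate of that library.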

How the results depend on the processing

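Counts of genes called in each gate comparison moved when a library was left out, when the block was dropped and under other settings. Without 1 library in turn, keratinocytes against fibroblasts had 944 to 3865 genes higher and 1468 to 4544 lower (2989 and 3866 with all libraries), suprabasal against basal cells 638 to 2402 and 371 to 2238 (1495 and 1227), follicular against basal cells 439 to 1956 and 233 to 1720 (1504 and 1090), dermal papilla against other fibroblasts 411 to 1707 and 782 to 2274 (931 and 1517), interstitial progenitors against other fibroblasts 643 to 1443 and 803 to 1498 (871 and 1074), and Schwann cells against fibroblasts 187 to 2073 and 290 to 2816 (1134 and 1504). The fit with the library as replicate block was the main one because gates of 1 library share animals. Without the block, genes higher and lower numbered 430 and 97 for suprabasal, 281 and 128 for follicular, 213 and 347 for dermal papilla and 178 and 160 for interstitial progenitor cells. DESeq2 called 897 and 686 for suprabasal and 915 and 630 for follicular cells. At a 5% mitochondrial limit, which left 2 libraries with enough basal cells, 2412 and 2251 were called for suprabasal cells and 1979 lower for follicular cells. A stricter gate gave 877 and 565 for follicular cells. Kept doublets gave 506 and 919 for the dermal papilla. Among settings chosen after seeing the data, the upper follicle alone gave 1809 lower, the lower follicle alone 397 and 248, and the wider papilla gate 918 lower.

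Ligand calls lost by leaving out a library or the block, by DESeq2 or by other gates stand beside the results. No ligand called in the main fit changed direction. Uncalled ones did for Wnt5b in the wider papilla gate (0.03) and when 1 library was left out in turn, where Wnt5b in follicular cells ranged from -1.63 to 0.23 (highest without 2 months), and in interstitial progenitors Wnt4 from -0.86 to 0.06 (highest without neonatal), Wnt5a from -0.70 to 0.30 and Wnt5b from -0.91 to 0.03 (both highest without 3 weeks). The causes were not tested. RLE scaling changed no ligand call. Without mitochondrial, ribosomal-protein and haemoglobin genes, 131 ligand levels in CPM moved beyond their counting interval and 37 did not. The mean CPM per cell moved 40 and not 128, and a stricter gate 45 and not 114. Of the age ratios these 3 settings moved 6 and not 79, 13 and not 61, and 8 and not 77, in that order. Shares of cells moved in 104 cases and not in 63 at 3000 UMIs. Precision was limited by small gates such as the 23 neonatal basal and 25 dermal papilla cells of 3 weeks.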
